A study of Mus musculus with 18 samples.

Results

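The effect of APOE4, taken against APOE3, on gene expression in the brain was compared between female and male mice. For each gene the difference between APOE4 and APOE3 females was set against the same difference in males, and the female difference minus the male one is called the sex difference of the APOE4 effect here. A positive value means that APOE4 raised the gene more, or lowered it less, in females than in males. The comparison takes in 12 of the 18 mice of the study: 3 APOE4 females, 3 APOE3 females, 3 APOE4 males and 3 APOE3 males, chosen by the genotype and the sex letter in their labels. The remaining 6 mice carry APOE2. They enter the filter, the scaling and the estimate of the spread between mice, but not the contrast, and their own sex differences are given once beside the others. All mice are C57bl/6 animals of 12 months in which the mouse Apoe gene was replaced by a human allele, and each is homozygous, so the APOE3 controls carry a human allele as well. RNA came from 1 frozen hemibrain per mouse and was sequenced after polyA selection, as 1 library per mouse.

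The sex letters were checked against sex-linked transcripts. Xist, the RNA that silences an X chromosome in females, ran from 833 to 1121 CPM (counts scaled to a common library size) in the 6 females and from 0.599 to 1.93 CPM in the 6 males. The 4 Y-linked genes Ddx3y, Uty, Kdm5d and Eif2s3y reached at most 0.105 CPM in a female and stood at 14.8 CPM or more in every male. Library totals lay between 43818967 and 52761314 counts. Mitochondrial transcripts took 3.5% to 4.03% of counts in APOE4 females, 3.35% to 3.83% in APOE3 females, 3.21% to 4.44% in APOE4 males and 3.41% to 3.59% in APOE3 males. The mouse Apoe gene (chromosome 7, 19696109 to 19699188 in GRCm38) averaged 43.7 ± 1.31 CPM in APOE4 females, 44 ± 1.7 CPM in APOE3 females, 45.8 ± 7.43 CPM in APOE4 males and 40.9 ± 3.58 CPM in APOE3 males (SD, n = 3 each). These values count reads aligned to the mouse gene, so they neither measure the human transcript nor tell the alleles apart. The titles of the mice end in letters that the labels do not explain: e in all 6 males, f, d and f in the APOE4 females and f, f and g in the APOE3 females. What the letters mark and the sex of the mice cannot be told apart.

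Apolipoprotein E is the main lipid carrier of the brain, made largely by astrocytes, and APOE4 is the isoform linked to a raised risk of Alzheimer's disease, a risk reported to be larger in women. Several of the genes described here belong to programmes that move within minutes to hours. Immediate early genes such as Fos and Npas4 are transcribed soon after neurons fire. Glucocorticoid-responsive genes such as Fkbp5 follow circulating corticosterone, which in mice changes with stress and time of day, and the period genes belong to the daily clock. Chaperones of the endoplasmic reticulum (ER) such as Hspa5 are induced when proteins misfold there.

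In the 19352 genes tested, the sex difference of the APOE4 effect passed the test in 2 genes, 0.0103% of them, Btg2 and Spred2 (edgeR, adjusted p under 0.05). With p taken unadjusted, 1342 genes lay under 0.05 (6.93%), 734 with a positive (3.79%) and 608 with a negative value (3.14%). DESeq2 called 37 of 18226 genes (0.203%), limma voom called 2, and edgeR on the 12 libraries alone called 0, with 1422 at an unadjusted p under 0.05. The APOE4 effect itself was called in 82 genes in females (0.424%), 69 in males (0.357%) and 126 over both sexes (0.651%). The sex difference is the less precise quantity: its standard error had a median of 0.153 on the log2 scale, against 0.108 for the effect in either sex, and its 95% interval reached a median of 0.319 to either side of the estimate.

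Btg2, an antiproliferative gene that also responds early to cell stimulation, fell in APOE4 females and rose in APOE4 males. It lies on the minus strand of chromosome 1 (134075170 to 134079120, GRCm38). Its level was 21.3, 12.1 and 12.9 CPM in the 3 APOE4 females, against 45.7, 41.9 and 28.7 CPM in the 3 APOE3 females. In males it was 35.7, 35.6 and 27.5 CPM with APOE4, against 12.1, 12.7 and 12.9 CPM with APOE3. The genotypes did not overlap in either sex, and the order was opposite: the low groups were APOE4 females and APOE3 males. The APOE4 effect was -1.32 on the log2 scale in females (SE 0.24, edgeR adjusted p = 0.0242) and 1.39 in males (SE 0.25, adjusted p = 0.0253). The sex difference was -2.71 (SE 0.34, 95% interval -3.45 to -1.98, adjusted p = 0.0259).

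Spred2, an inhibitor of Ras and MAP kinase signalling, moved the other way and by less. It lies on the plus strand of chromosome 11 (19924375 to 20024026). APOE4 females had 92.5, 90.6 and 88.7 CPM, against 69.6, 71.5 and 75.1 CPM in APOE3 females. APOE4 males had 70.5, 67 and 72.2 CPM, against 87.6, 76.3 and 87.2 CPM in APOE3 males. Here APOE4 females and APOE3 males were the high groups, again with no overlap between genotypes in either sex. The effect was 0.33 in females (SE 0.06, edgeR adjusted p = 0.0184) and -0.26 in males (SE 0.06, adjusted p = 0.117), and the sex difference was 0.59 (SE 0.09, 95% interval 0.40 to 0.78, adjusted p = 0.0259).

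Both calls lie near the threshold. On the 12 libraries alone both genes had an edgeR adjusted p of 0.0509. Btg2 was no longer called without APOE4 female 3, APOE3 female 1 or 2, APOE4 male 1 or 2, or any APOE3 male (adjusted p 0.0636 to 0.176), and Spred2 without any single mouse other than APOE4 female 2 or APOE3 male 2 (0.0503 to 0.215). Their values moved little, between -3.02 and -2.58 for Btg2 and between 0.55 and 0.64 for Spred2.

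Promoters are shown for 4 genes of the groups described here. Each holds a binding motif linked to its group, which most promoters of the group lacked. These are a cAMP response element in the immediate early genes Btg2 and Dusp1, a glucocorticoid response element in Sgk1 and an ER stress response element in Hspa5. The sequences are the 250 bases before the RefSeq start (GRCm38.p6), 5′ to 3′ on the strand of the gene, with the motif in capitals. They lie at chr1:134079156-134079405 (minus strand, Btg2), chr17:26508473-26508722 (minus strand, Dusp1), chr10:21993640-21993889 (plus strand, Sgk1, for 1 of 6 listed starts) and chr2:34771840-34772089 (plus strand, Hspa5).
Btg2: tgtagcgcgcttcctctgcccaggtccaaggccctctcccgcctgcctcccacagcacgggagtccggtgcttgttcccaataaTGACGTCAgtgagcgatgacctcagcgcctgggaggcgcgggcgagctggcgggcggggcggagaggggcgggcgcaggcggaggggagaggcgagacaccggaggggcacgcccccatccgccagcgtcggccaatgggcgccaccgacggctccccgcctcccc
Dusp1: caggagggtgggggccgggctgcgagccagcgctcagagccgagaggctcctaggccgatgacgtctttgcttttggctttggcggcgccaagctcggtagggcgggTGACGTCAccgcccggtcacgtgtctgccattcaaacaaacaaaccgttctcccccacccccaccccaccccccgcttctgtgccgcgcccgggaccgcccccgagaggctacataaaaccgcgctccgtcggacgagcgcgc
Sgk1: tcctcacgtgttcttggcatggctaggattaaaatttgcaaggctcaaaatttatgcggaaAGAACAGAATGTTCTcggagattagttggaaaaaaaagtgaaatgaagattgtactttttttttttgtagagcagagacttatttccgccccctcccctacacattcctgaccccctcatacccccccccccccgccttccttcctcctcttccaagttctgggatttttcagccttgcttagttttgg
Hspa5: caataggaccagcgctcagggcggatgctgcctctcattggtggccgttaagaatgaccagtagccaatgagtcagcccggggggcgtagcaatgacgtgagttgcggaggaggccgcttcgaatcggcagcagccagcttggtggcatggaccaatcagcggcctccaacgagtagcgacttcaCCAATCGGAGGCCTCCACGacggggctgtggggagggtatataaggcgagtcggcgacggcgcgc

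The motifs were searched on both strands, and both motifs and genes were chosen after their values were seen. The element TGACGTCA began at position -166 from the start in Btg2 and at -143 in Dusp1. It was found in 2 of 15 immediate early promoters (13.3%), against 1.77% of the promoters of all 27025 genes. The glucocorticoid element, AGAACA and TGTNCT with 3 free bases between them, began at -189 in Sgk1 and was in 1 of 15 promoters of the glucocorticoid list (6.67%), against 0.0444% of all genes. The ER stress element, CCAAT and CCACG with 9 free bases between them, began at -65 in Hspa5 and was in 2 of 18 promoters of the chaperone list (11.1%), against 0.13%. The clock's E-box CACGTG, whose first letters the end of the ER element can share, was in 5 of 15 clock promoters (33.3%), against 6.86%. The motifs were not limited to their own lists: the E-box was in 3 of 15 promoters (20%) of both the glucocorticoid and the immediate early list, and the cAMP element in 1 of 15 (6.67%) of both the glucocorticoid and the clock list. A match describes these letters only.

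**Figure D1:**
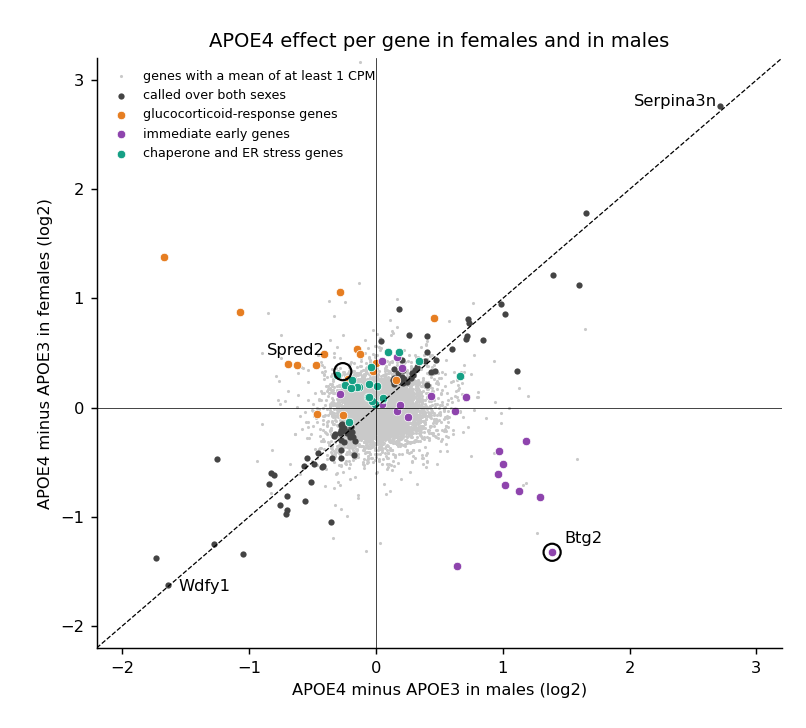
APOE4 minus APOE3 (log2) in females (vertical) against males (horizontal) for 14809 genes that averaged 1 CPM or more, with 12 more outside the axes. Dark points are genes called over both sexes, which lie along the dashed line of equal effects, and coloured points are 3 gene lists. Btg2 lies at the lower right, with -1.32 in females and 1.39 in males.

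Of the 20 genes of smallest p with a mean of at least 1 CPM, 14 had a positive and 6 a negative sex difference. In 19 the estimates had opposite signs in the sexes, and 14 showed no overlap between genotypes in either sex with the order reversed. This crossed order was found in 170 of all genes (0.878%), 101 with APOE4 higher in females and lower in males (0.522%) and 69 the reverse (0.357%). The 20 genes were ranked by the p of the sex difference itself, which favours opposite signs and a crossed order. Their counts follow in part from that ranking. The parallel order, with APOE4 above APOE3 in both sexes, was found in 175 genes (0.904%), and with APOE4 below in 251 (1.3%). The edgeR adjusted p of the 18 genes outside the call ran from 0.0635 to 0.2, and DESeq2 called all 20.

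Camk1g, a neuronal calcium/calmodulin-dependent kinase, had 46.6, 38.2 and 45.4 CPM in APOE4 females, against 29.2, 31 and 34.4 CPM in APOE3 females. In males it had 33.8, 29.8 and 35 CPM with APOE4, against 43.4, 39.5 and 41 CPM with APOE3. Its order was that of Spred2, and the sex difference was 0.79 (SE 0.14, edgeR adjusted p = 0.0635). Tob1, an antiproliferative gene of the same family as Btg2, followed the order of Btg2. It had 32.8, 29.1 and 34.5 CPM in APOE4 females, against 41.1, 37.4 and 39.5 CPM in APOE3 females, and 36.5, 43.5 and 35.7 CPM in APOE4 males, against 29.5, 29.8 and 29.8 CPM in APOE3 males (sex difference -0.67, SE 0.12, adjusted p = 0.0671). The immediate early gene Ier2 had 9.28, 5.38 and 5.27 CPM in APOE4 females, against 11.4, 13 and 9.42 CPM in APOE3 females. In APOE4 males it had 11.7, 9.65 and 11.4 CPM, against 4.92, 4.43 and 5.63 CPM in APOE3 males (sex difference -1.89, SE 0.34, adjusted p = 0.145).

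The other genes with a positive value included Etv5 (0.62), an ETS transcription factor downstream of growth factor signalling, Sik2 (0.61), a salt-inducible kinase, and Gpr161 (0.46), a receptor of the primary cilium that restrains Hedgehog signalling. Gpt2 (0.64) is a mitochondrial alanine aminotransferase, Tlr7 (0.96) an endosomal sensor of RNA, Serpinb8 (0.92) a serine protease inhibitor and Klhl3 (0.48) a substrate adaptor of a ubiquitin ligase. Banp (0.63) encodes a nuclear DNA-binding protein, and Ankrd33b (0.57) an ankyrin repeat protein. Zbtb16 (1.01) and Klf9 (0.49) are transcription factors that glucocorticoids induce. Adamts1 (-0.85), a secreted metalloprotease, and Cyr61 (-2.42), a matrix-associated growth regulator, were the other negative values apart from prolactin. None of these passed edgeR's adjusted threshold for the sex difference.

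Cdk5rap1, which modifies mitochondrial tRNAs, was the 1 gene of the 20 whose estimates shared a sign. It had 13.6, 15 and 14.7 CPM in APOE4 females, against 9.1, 9.63 and 9.61 CPM in APOE3 females, so the female groups lay well apart. The male groups overlapped, at 8.87, 9.94 and 10.9 CPM with APOE4, against 8.69, 10.3 and 9.84 CPM with APOE3. Its effect was 0.61 in females (SE 0.09, edgeR adjusted p = 0.000491) and 0.04 in males (SE 0.09, adjusted p = 0.956), and the sex difference of 0.57 (SE 0.12) had an adjusted p of 0.2.

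**Figure D2:**
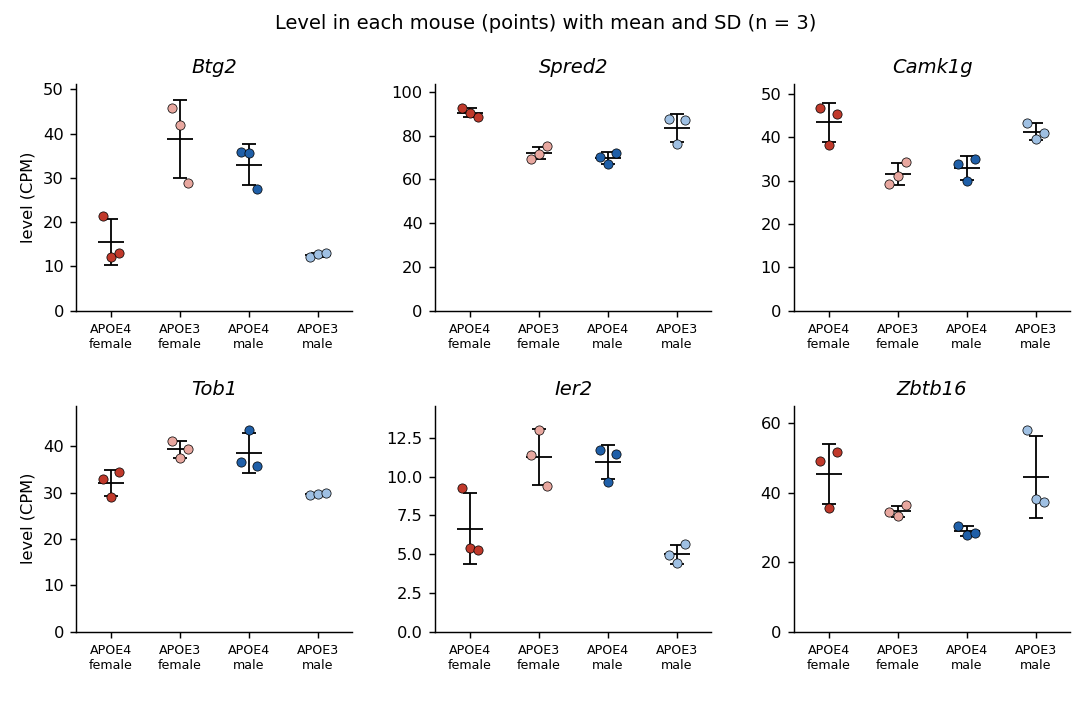
Level in CPM of 6 genes in each mouse (points), with the mean and SD of each group (n = 3). Btg2, Tob1 and Ier2 are low in APOE4 females and APOE3 males, and Spred2, Camk1g and Zbtb16 are high in these groups.

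Lists of genes that share a role were described by their median and by how many members had an unadjusted p under 0.05 in either direction. Over all genes tested, the median sex difference was 0.01 and 51.6% of the values were above 0. The glucocorticoid-responsive genes had the largest positive median of the 33 lists. All 16 members had a positive sex difference, with a median of 0.65, and 9 had an unadjusted p under 0.05 (background 3.79%). The median effect was 0.40 in females and -0.27 in males. Fkbp5 encodes a cochaperone that restrains the glucocorticoid receptor. It had 58.4, 36.2 and 45.7 CPM in APOE4 females, against 32.2, 31.5 and 43 CPM in APOE3 females, and 34.8, 32.1 and 36.9 CPM in APOE4 males, against 57.3, 44.4 and 42.6 CPM in APOE3 males. The females overlapped and the males did not. Zbtb16 had 49.1, 35.6 and 51.6 CPM in APOE4 females, against 34.3, 33.1 and 36.3 CPM in APOE3 females, and 30.5, 27.9 and 28.4 CPM in APOE4 males, against 58, 38.1 and 37.2 CPM in APOE3 males.

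Klf9 was the 1 member of this list in which both sexes were free of overlap, with 185, 159 and 177 CPM in APOE4 females, against 138, 138 and 158 CPM in APOE3 females, and 142, 150 and 148 CPM in APOE4 males, against 189, 159 and 165 CPM in APOE3 males. The lipid droplet coat gene Plin4 (3.05, SE 0.94), the hypoxia factor Hif3a (1.95, SE 0.65), the kinases Sgk1 (1.34, SE 0.56) and Map3k6 (1.09, SE 0.34), Tsc22d3 (0.90, SE 0.31), Fkbp5 (0.87, SE 0.25) and the cell cycle inhibitor Cdkn1a (0.69, SE 0.28) were the others with an unadjusted p under 0.05. No member passed edgeR's adjusted threshold, and DESeq2 called 2, Zbtb16 and Klf9. The mean log2 level of the list, as a deviation from the 12 mice, was 0.76, -0.27 and 0.32 in APOE4 females, against -0.28, -0.28 and 0.07 in APOE3 females. It was -0.23, -0.30 and -0.14 in APOE4 males, against 0.26, -0.03 and 0.14 in APOE3 males. APOE4 female 2, the mouse whose title ends in d, thus lay with the APOE3 females. Without that mouse and APOE3 female 3, whose title ends in g, edgeR called 32 genes for the sex difference, 5 of them on this list: Zbtb16, Klf9, Tsc22d3, Hif3a and Fkbp5. That fit drops the APOE4 female lowest and the APOE3 female highest on this list, which favours these calls. With all mice 0 of the 16 members were called.

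Immediate early genes went the other way, with 16 of 20 members negative, a median sex difference of -0.63 and 7 members at an unadjusted p under 0.05 (background 3.14%), Btg2 among them. The median effect was -0.06 in females and 0.63 in males. Npas4, a transcription factor that neurons make only after calcium entry, had 22.8, 9.65 and 19.7 CPM in APOE4 females, against 51.9, 38.3 and 53 CPM in APOE3 females. In males it had 21.4, 20.6 and 25 CPM with APOE4, against 16.8, 12.5 and 13.7 CPM with APOE3, so the genotypes did not overlap in either sex (sex difference -2.09, SE 0.56, edgeR adjusted p = 0.406). Fos had 49.4, 20.5 and 15.5 CPM in APOE4 females, against 53.9, 60.4 and 36.5 CPM in APOE3 females, and 41.4, 40.3 and 47.3 CPM in APOE4 males, against 13.4, 6.61 and 33 CPM in APOE3 males. The female groups overlapped through APOE4 female 1. The MAP kinase phosphatase Dusp1 (-1.73, SE 0.45), the AP-1 subunit Junb (-1.56, SE 0.47), Fos (-2.11, SE 0.83) and the orphan receptor Nr4a1 (-1.37, SE 0.62) were the remaining members at an unadjusted p under 0.05, beside Btg2, Ier2 and Npas4.

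The mean log2 level of the immediate early list was 0.54, -0.30 and -0.43 in APOE4 females, against 0.29, 0.57 and -0.08 in APOE3 females, and 0.21, 0.15 and 0.35 in APOE4 males, against -0.47, -0.87 and 0.02 in APOE3 males. APOE4 female 1 was high for both the immediate early and the glucocorticoid list. Without that mouse 12 of 20 immediate early genes had an unadjusted p under 0.05 and the list's median sex difference was -1.21. Without APOE4 female 3 the median was -0.38.

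Clock genes had a smaller positive shift, with 15 of 16 members above 0, a median of 0.27 and 6 members at an unadjusted p under 0.05 (background 3.79%). The clock and glucocorticoid lists share Per1. Per2, a repressor of the clock that glucocorticoids also induce, had 88.1, 41.4 and 65.8 CPM in APOE4 females, against 35.5, 37.3 and 50.4 CPM in APOE3 females. In males it had 34.9, 32.6 and 42.2 CPM with APOE4, against 57.2, 51.9 and 75.5 CPM with APOE3 (sex difference 1.42, SE 0.31, edgeR adjusted p = 0.265). Only the males were free of overlap. DESeq2 called Per2 (adjusted p = 0.0182) and no other member of the list, and edgeR called 0. The sole member below 0 was Arntl (-0.31, SE 0.20), the activator that is high when the period genes are low. The other 5 members at an unadjusted p under 0.05 were Per3 (0.56), Nr1d2 (0.39), Bhlhe41 (0.38), Tef (0.26) and Hlf (0.25), all of them transcriptional regulators of the clock or of its output. The count depended on single mice: it was 1 without APOE4 female 1, APOE3 female 2 or APOE3 male 3, and 3 without APOE3 female 1 or APOE4 male 1. The median was 0.17 without APOE4 female 1.

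Chaperone and ER stress genes were positive in 20 of 22 members, with a median of 0.23, and 9 had an unadjusted p under 0.05 (background 3.79%). The median effect was 0.21 in females and -0.04 in males. At an unadjusted p under 0.05 10 members were higher with APOE4 in females and 7 lower with APOE4 in males. In either direction 7.78% of all genes had such a p in females and 8.33% in males. Hspa5, the main chaperone of the ER, had 279, 273 and 332 CPM in APOE4 females, against 247, 263 and 254 CPM in APOE3 females, and 205, 233 and 218 CPM in APOE4 males, against 297, 228 and 253 CPM in APOE3 males. The female groups were apart and the male groups overlapped (sex difference 0.46, SE 0.14, edgeR adjusted p = 0.411). Pdia4, an ER disulfide isomerase, had 43.5, 41.3 and 51.7 CPM in APOE4 females, against 37.5, 38.2 and 38.6 CPM in APOE3 females, and 32.1, 33.6 and 33 CPM in APOE4 males, against 39.9, 35.1 and 37.6 CPM in APOE3 males. Both sexes were free of overlap. Xbp1 (0.34, SE 0.09), the transcription factor of the ER stress response, and the small heat shock protein gene Hspb1 (0.81, SE 0.31) were crossed without overlap too. Sdf2l1 (0.60), Manf (0.37) and Herpud1 (0.27) of the ER and Hsph1 (0.32) of the cytosol completed the group, together with Hspa1a (0.41), which is uncertain because its copy Hspa1b is nearly identical. By edgeR and by DESeq2 0 of the 22 members passed the adjusted threshold. The mean log2 level of the list was 0.15, 0.11 and 0.26 in APOE4 females, above the other 9 mice, with -0.06, -0.04 and -0.01 in APOE3 females, -0.11, -0.09 and -0.03 in APOE4 males and 0.03, -0.15 and -0.06 in APOE3 males.

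**Figure D3:**
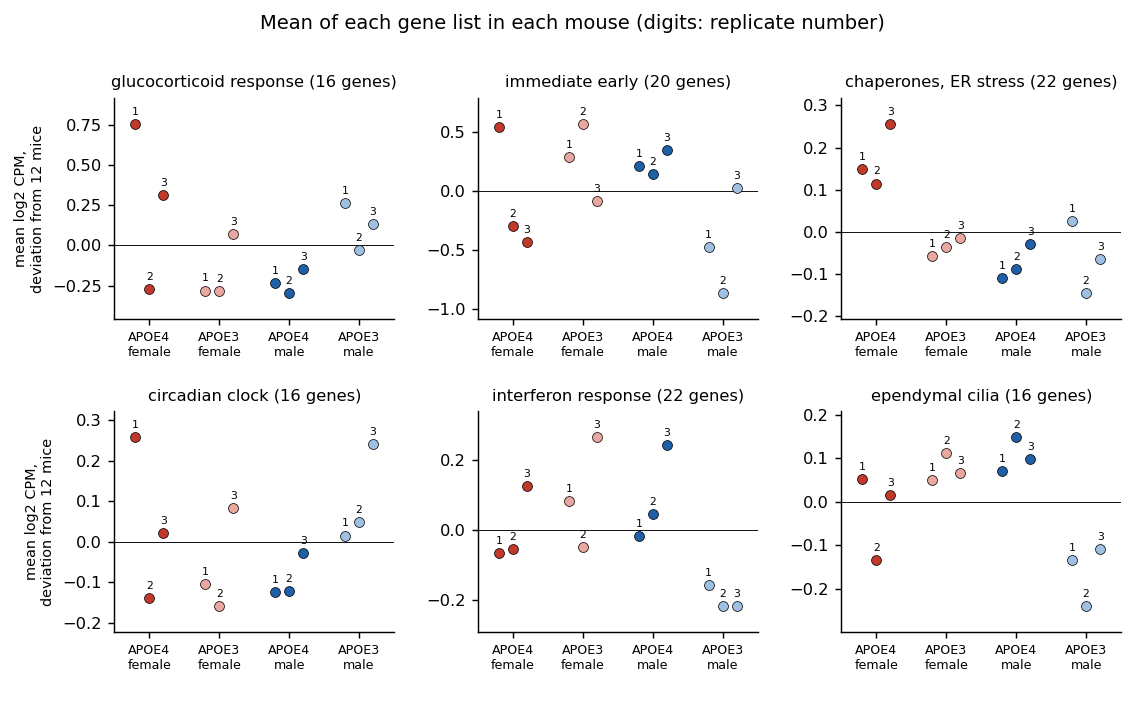
Mean log2 CPM of 6 gene lists in each mouse, as the deviation from the mean of the 12 mice, with the replicate number above each point. All 3 APOE4 females lie above the other mice for chaperones (0.11 to 0.26), while for the glucocorticoid list APOE4 female 2 (-0.27) lies with the APOE3 females.

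Genes of the interferon response, which defends against viruses, had mostly negative values: 19 of 22 members lay below 0, with a median of -0.31. An unadjusted p under 0.05 was found in 7 (background 3.14%). The median effect was -0.06 in females and 0.26 in males. Oasl2, an antiviral oligoadenylate synthetase-like protein, had 4.28, 4.71 and 4.64 CPM in APOE4 females, against 4.56, 5.49 and 6.23 CPM in APOE3 females, and 6.28, 4.76 and 7.42 CPM in APOE4 males, against 3.26, 4.39 and 4.94 CPM in APOE3 males. Both sexes overlapped. Usp18, which damps interferon signalling, differed between genotypes in males, at 1.33, 1.67 and 1.72 CPM with APOE4, against 0.71, 0.866 and 0.689 CPM with APOE3. In females it had 1.34, 1.05 and 1.47 CPM with APOE4, against 1.19, 0.885 and 1.8 CPM with APOE3 (sex difference -1.05, SE 0.36, edgeR adjusted p = 0.499). Cxcl10 (-1.41), Rsad2 (-0.89), Isg15 (-0.75), Xaf1 (-0.28) and Ifi27 (-0.23) made up the remaining members. The count was 4 without APOE4 female 1 or APOE3 male 1 and 3 without APOE4 male 3. The 11 genes of MHC class I presentation were all negative, with a median of -0.21. Of them 1, the immunoproteasome subunit Psmb9 (-0.58, SE 0.27), had an unadjusted p under 0.05 (background 3.14%). Neither list had a member past the adjusted threshold of edgeR or DESeq2.

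C3, the central complement component, was the complement gene of smallest p. It had 1.79, 2 and 1.83 CPM in APOE4 females, against 2.86, 2.77 and 3.48 CPM in APOE3 females, and 2.51, 2.16 and 2.94 CPM in APOE4 males, against 2.04, 1.85 and 2.18 CPM in APOE3 males. The females did not overlap and the males did, by 1 mouse (sex difference -1.03, SE 0.23, edgeR adjusted p = 0.201). The other 13 complement genes tested had an unadjusted p of 0.05 or more, and DESeq2 called C3 alone among the 14.

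The next 3 lists mark tissues at the surface and the ventricles of the brain. In a hemibrain, fewer cells of a type and less RNA per cell cannot be told apart. Ependymal cilia genes were negative in 14 of 16 members, with a median of -0.38 and 6 at an unadjusted p under 0.05 (background 3.14%). Ccdc153, a marker of ciliated cells, had 4.17, 2.76 and 3.4 CPM in APOE4 females, against 4.05, 4.26 and 4.49 CPM in APOE3 females, and 4.25, 4.55 and 4.34 CPM in APOE4 males, against 3.37, 3.64 and 3.63 CPM in APOE3 males. The males were apart and the females overlapped through APOE4 female 1. Tmem212 (-0.66), Cfap126 (-0.67), Hydin (-0.50), Rsph1 (-0.47) and Ak7 (-0.42) were the others. The list's summed level was 80.5, 66.8 and 77.3 CPM in APOE4 females, against 76.7, 77.3 and 74.5 CPM in APOE3 females, and 73.5, 76.3 and 77.2 CPM in APOE4 males, against 64.5, 66.1 and 66.5 CPM in APOE3 males.

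Choroid plexus markers were negative in 19 of 20 members, with a median of -0.29, but 1 member, Lbp (-0.40), had an unadjusted p under 0.05, a share near the background of 3.14%. The median was -0.16 without APOE4 female 3, -0.18 without APOE3 female 2, -0.44 without APOE4 female 2 and -0.45 without APOE3 female 1. The summed level of the list ran from 980.5 to 1531.5 CPM in APOE4 females, from 1106 to 1422.6 CPM in APOE3 females, from 1135 to 1459 CPM in APOE4 males and from 1053 to 1168 CPM in APOE3 males. Meningeal and collagen genes had 14 of 16 members below 0, with a median of -0.20, and none at an unadjusted p under 0.05. This median lay between -0.12 and -0.39 with 1 mouse left out, at -0.12 without APOE4 female 3, -0.13 without APOE4 male 2, -0.30 without APOE4 male 1, -0.31 without APOE3 female 1, -0.32 without APOE4 female 1 and -0.39 without APOE3 female 2. By edgeR and by DESeq2 0 members of these 3 lists passed the adjusted threshold.

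Pituitary hormone transcripts were present in some mice and nearly absent in others. Prolactin (Prl) had 7, 6 and 0 reads in APOE4 females, against 859, 21 and 965 in APOE3 females, and 96, 1539 and 87 reads in APOE4 males, against 2, 1 and 1 in APOE3 males. Growth hormone (Gh) had 16, 4 and 0 reads in APOE4 females, against 247, 3 and 149 in APOE3 females, and 203, 6940 and 681 reads in APOE4 males, against 5, 3 and 1 in APOE3 males. The 6 hormone genes tested, of 9 listed, all had a negative sex difference with an unadjusted p under 0.05 (background 3.14%). DESeq2 called 3 of them. A gene with reads in few groups can pass the filter through those groups alone, so this count is no evidence of its own. With a filter of 1 CPM in 3 libraries 4 of the genes were left. Pomc is also made in the hypothalamus. Folds are not given, since they depend on single reads in the low groups. The groups with hormone reads were thus APOE3 females, apart from mouse 2, and APOE4 males. As groups, these were also high for Btg2 and the immediate early genes and low for the glucocorticoid list. Single mice departed from this match. With few hormone reads, APOE3 female 2 had an immediate early list mean of 0.57, against 0.29 and -0.08 in APOE3 females 1 and 3. APOE4 female 1, also with few hormone reads, had an immediate early list mean of 0.54. The summed level of the 6 genes was 4.34, 3.32 and 2.30 CPM in APOE4 females, against 29.5, 4.56 and 28.4 CPM in APOE3 females, and 14, 172 and 20 CPM in APOE4 males, against 2.04, 2.66 and 3.38 CPM in APOE3 males. Their part in the other results was not tested. Among 14 hypothalamic peptide genes tested, 11 had a negative sex difference, with a median of -0.15. An unadjusted p under 0.05 was found in 3, Agrp, Hcrt and Pmch (background 3.14%), and edgeR called 0 of the 14.

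Glutamatergic synapse genes were positive in 16 of 17 members with a median of 0.13. An unadjusted p under 0.05 was found in 2 (background 3.79%), and in 1 to 3 with 1 mouse left out. With all mice they were the glutamate receptor subunit Gria1 (0.15) and Homer1 (0.85), a postsynaptic scaffold whose short form is itself induced by activity. Homer1 had 197, 215 and 217 CPM in APOE4 females, against 169, 166 and 135 CPM in APOE3 females, and 106, 162 and 157 CPM in APOE4 males, against 227, 141 and 205 CPM in APOE3 males. The females were apart and the males overlapped (edgeR adjusted p = 0.474). Interneuron genes had a median of 0.08, reactive astrocyte genes -0.13, oligodendrocyte genes -0.07, homeostatic microglia genes -0.02 and disease-associated microglia genes -0.15. Between 0 and 2 members of each of these had an unadjusted p under 0.05, all of them with a negative value (background 3.14%).

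Vessel genes were split in direction, with a median of -0.08. At an unadjusted p under 0.05 3 of 18 members were higher (background 3.79%) and 2 lower (background 3.14%). Mfsd2a, a lipid transporter of the blood-brain barrier, had 26, 14.7 and 24.3 CPM in APOE4 females, against 14.4, 14.6 and 17.8 CPM in APOE3 females, and 14.5, 12.4 and 15.5 CPM in APOE4 males, against 19.8, 19 and 19.2 CPM in APOE3 males. The males were apart and the females overlapped through APOE4 female 2 (sex difference 0.93, SE 0.26, edgeR adjusted p = 0.372, DESeq2 adjusted p = 0.0496). The glucose transporter Slc2a1 (0.65) and the potassium channel regulator Abcc9 (0.31) were also positive, and the growth factor receptors Kdr (-0.44) and Pdgfrb (-0.27) negative. The 15 astrocyte genes had a median of 0.07. At an unadjusted p under 0.05 Glul (0.30) and Fgfr3 (0.21) were higher (background 3.79%) and the transcription factor Sox9 (-0.51) lower (background 3.14%). Without APOE4 female 2 and APOE3 female 3, edgeR called Mfsd2a (1.24), Sox9 (-0.74) and the tight junction gene Cldn5 (-1.32), none of which it called with all mice. For Mfsd2a (14.7 and 17.8 CPM) and Sox9 (26.8 and 23.8 CPM) these were the females nearest to the other genotype. Leaving them out favours these calls.

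Of 26 genes of early endosomes and Rab GTPases 20 were positive, but the median was 0.09 and 1 passed at an unadjusted p under 0.05 (background 3.79%). Exosome release (21 genes tested of 22 listed) and lysosome genes (23) each had a median of 0.01 and 0 members at an unadjusted p under 0.05 in edgeR, nor was any of them called by DESeq2. Cholesterol synthesis (22 genes) had a median of -0.02, lipid carriers and liver X receptor targets (18) 0.01, and genes of amyloid precursor protein processing and tau (17) 0.04. Receptors of sex steroids and corticoids with their coregulators were positive in 9 of 10 members with a median of 0.10, and 0 members had an unadjusted p under 0.05, while known oestrogen targets had a median of 0.03. Kdm5c, an X-linked histone demethylase that escapes X inactivation, was the sex-linked gene that crossed, at 96.7, 98.8 and 107 CPM in APOE4 females, against 90.4, 95.6 and 86.7 CPM in APOE3 females. In males it stood at 68.9, 62 and 69.8 CPM with APOE4, against 77.8, 73 and 76.1 CPM with APOE3 (sex difference 0.33, SE 0.09, edgeR adjusted p = 0.304).

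**Figure D4:**
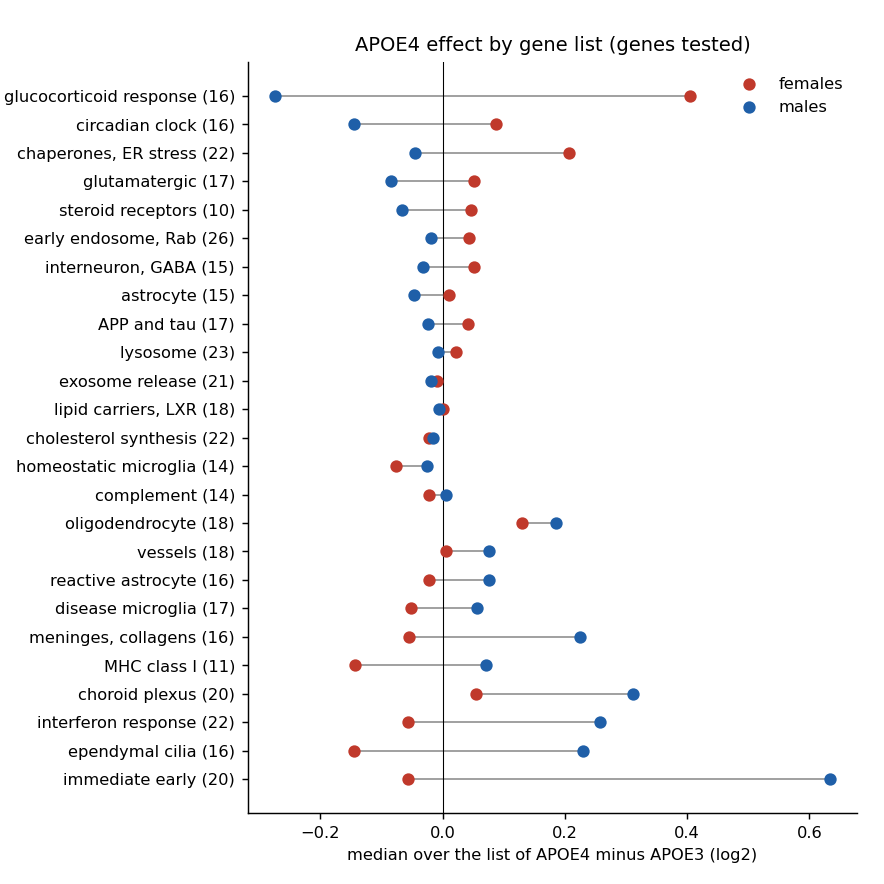
Median effect of APOE4 (log2, APOE4 minus APOE3) over the genes tested of 25 lists, in females and in males. Glucocorticoid genes lie at 0.40 in females and -0.27 in males, immediate early genes at -0.06 and 0.63, and lysosome, exosome and lipid lists near 0 in both.

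The same contrast can be read as a difference between the sexes within a genotype. The median of females minus males over the glucocorticoid list was 0.50 in APOE4 mice, 0.18 in APOE2 mice and -0.20 in APOE3 mice. Over the immediate early list it was -0.20 in APOE4, 0.08 in APOE2 and 0.44 in APOE3, and over the chaperone list 0.23 in APOE4, 0.15 in APOE2 and 0.00 in APOE3. For these 3 lists the APOE2 value lay between the others. It lay below both for the interferon list (-0.14 in APOE4, -0.18 in APOE2 and 0.22 in APOE3), MHC class I (-0.06, -0.31 and 0.17 in the same order), choroid plexus (-0.02, -0.19 and 0.36), meninges (0.12, -0.14 and 0.47) and, by little, ependymal cilia (-0.118, -0.122 and 0.252).

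Serpina3n, an acute-phase protease inhibitor of reactive astrocytes on chromosome 12 (104406729 to 104414329), had 138, 140 and 148 CPM in APOE4 females, against 19.4, 20.9 and 22.7 CPM in APOE3 females, and 151, 136 and 137 CPM in APOE4 males, against 22, 22.2 and 20.4 CPM in APOE3 males. The effect was 2.76 in females and 2.71 in males (SE 0.08 each), and the sex difference of 0.04 had a 95% interval of -0.19 to 0.28. Wdfy1, an endosomal adaptor of Toll-like receptor signalling on chromosome 1 (79702262 to 79776143), had 18.2, 19.8 and 21.3 CPM in APOE4 females, against 60.8, 60.1 and 62.3 CPM in APOE3 females, and 18.5, 20.7 and 22.2 CPM in APOE4 males, against 65.8, 61.6 and 64.1 CPM in APOE3 males. Its effect was -1.63 in females and -1.64 in males, with a sex difference of 0.01 (95% interval -0.20 to 0.23).

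Oscar, Eps8l1, Ptprh and Tmc4 lie within 1 stretch of chromosome 7 (3609813 to 4604041). The immune receptor gene Oscar had an effect of 3.95 in females and 3.93 in males (95% interval of the difference -0.94 to 0.99). Eps8l1, a regulator of actin, had 10.6, 8.33 and 17.2 CPM in APOE4 females, against 0.763, 0.543 and 0.65 CPM in APOE3 females, and 7.96, 8.78 and 6.18 CPM in APOE4 males, against 0.776, 0.649 and 0.827 CPM in APOE3 males. It was far higher with APOE4 in both sexes, with a sex difference of 0.86 (95% interval 0.11 to 1.61, edgeR adjusted p = 0.635). The tyrosine phosphatase Ptprh had effects of 3.05 and 3.24 in females and males, Tmc4 of 1.21 and 1.39, and Crb1, a polarity gene on chromosome 1, of 1.78 and 1.66. For Erdr1 the estimates were 4.01 in females and 1.77 in males, with 179, 335 and 359 reads in APOE4 females, against 3, 44 and 5 in APOE3 females, and 210, 191 and 176 reads in APOE4 males, against 27, 90 and 37 in APOE3 males (sex difference 2.24, 95% interval 0.44 to 4.04, adjusted p = 0.606).

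Serpina3f and Serpina3m, paralogs of Serpina3n whose shared sequence makes the assignment of reads uncertain, were nearly read-free with APOE3. Serpina3f summed to 702 reads in APOE4 females, against 2 in APOE3 females, and to 718 in APOE4 males, against 2 in APOE3 males. Serpina3m summed to 590 reads in APOE4 females, against 3 in APOE3 females, and to 635 in APOE4 males, against 3 in APOE3 males. The immunoglobulin gene Ighg2c went the other way, with 18 reads in APOE4 females, against 625 in APOE3 females, and 7 reads in APOE4 males, against 638 in APOE3 males. The sex difference of Ighg2c had a 95% interval of -0.19 to 3.03 (edgeR adjusted p = 0.766).

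**Figure D5:**
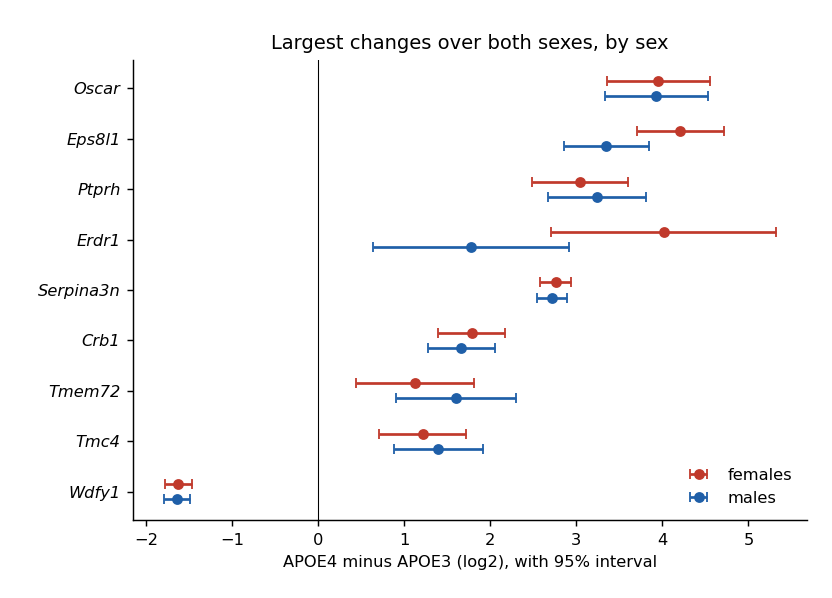
APOE4 minus APOE3 (log2) with its 95% interval in females and in males, for 9 genes called over both sexes. The intervals of the sexes overlap for all 9 genes, among them Serpina3n (2.76 and 2.71) and Wdfy1 (-1.63 and -1.64). The estimates of Erdr1 (4.01 and 1.77) lie farthest apart, with overlapping intervals.

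Over the 126 genes called for APOE4 over both sexes, the sex difference had a median size of 0.12 on the log2 scale, against 0.63 for the effect itself. It was larger than the effect in 3 of them. The genes were called for the effect, which tilts this comparison towards a small sex difference. In 88 the 95% interval lay within 1 log2 unit of 0, a margin wider than the median effect, so this does not show equal effects in the sexes. In edgeR 0 of the 126 were called for the sex difference, and DESeq2 called 1. An unadjusted p under 0.05 was found in 13 (10.3%), above the 6.93% of all genes tested. Among them were Cdk5rap1, Kirrel2, Trmt61b, Erdr1 and Eps8l1.

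Females and males share no mouse, so a call in 1 sex can be followed in the other. Of the 82 genes called in females, 76 had the same sign in males, 45 were called there too and 67 had the same sign with an unadjusted p under 0.05, a p that 8.33% of all genes had in males. The opposite sign was found in 6, of which 3 had an unadjusted p under 0.05 in males. Their effects had a median size of 0.90 in females and, signed by the female direction, of 0.70 in males. Of the 69 genes called in males, 62 had the same sign in females, 45 were called there and 57 had the same sign with an unadjusted p under 0.05 (7.78% of all genes in females). Their median was 1.17 in males and 0.89 in females.

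A call in 1 sex and none in the other does not show that the effects differ, and of the genes called in females 2 were called for the sex difference. Kirrel2, a cell adhesion protein, had an effect of 0.91 in females and 0.18 in males (sex difference 0.73, 95% interval 0.32 to 1.13, edgeR adjusted p = 0.304). Trmt61b, a mitochondrial tRNA methyltransferase, had -1.05 in females and -0.35 in males, and Pfkfb3, an activator of glycolysis, 0.36 in females and -0.08 in males. On the male side, the desmosome gene Dsp had an effect of 0.06 in females and -0.72 in males (sex difference 0.78, 95% interval 0.41 to 1.15, adjusted p = 0.201). Lgals3bp, a secreted glycoprotein, had -0.08 in females and 0.39 in males, and the transcription factor gene Tbx1, at about 1 CPM, had 0.01 in females and 1.17 in males (sex difference -1.16, 95% interval -1.74 to -0.59, adjusted p = 0.24).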

How the data were processed

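Hemibrain polyA RNA of 18 mice was made into stranded single-end libraries, read over 50 bases, per the labels' protocols. The values used are raw counts of reads per gene symbol, as the authors deposited them. The submitters' processing notes name Trimmomatic, STAR 2.7.0, featureCounts and DESeq2, and the builds GRCm38 and mm10. Neither the annotation release nor the strand setting of the counting is given in the sources used here, so reads of overlapping and antisense genes cannot be told apart. Of 52459 symbols, 26 that had become dates, with 0.304% to 0.322% of counts, were left out.

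Mice were grouped by their labelled genotype and sex, and replicate numbers only name a mouse. The labels used here do not tie mice to cages or litters. The p-values set each difference against the spread between these mice and take the mice as independent. Replicates differed beyond counting noise (chi-square per degree of freedom 5.77 to 46.55), and each counts as its own sample.

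Counts were fitted in edgeR 4.0.16 under R 4.3.3 by quasi-likelihood with robust estimation, TMM scaling, filterByExpr and 1 mean for each of the 6 groups, using all 18 libraries, and contrasts were tested by its F test, checked on simulated counts. Calls used a Benjamini-Hochberg adjusted p under 0.05 over 19352 genes. The biological coefficient of variation was 0.0838. Intervals at 95% use the fit's degrees of freedom (median 20.28). Levels are CPM after TMM scaling, and list means use log2 CPM with a prior count of 0.5. Unadjusted p-values serve only for counts over lists and all genes. Positions are from the GENCODE M21 annotation of GRCm38, which matched 18706 of the genes tested.

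Alternatives were DESeq2 size factors and upper-quartile factors, the fit with no filter, a filter of 1 CPM in 3 libraries, the Wald test of DESeq2 1.42.0, voom in limma 3.58.1, no robust estimation, the 12 APOE4 and APOE3 libraries alone, 1 surrogate variable (sva 3.50.0), only mice whose title letter is e or f, a threshold of 0.1, and each of the 12 mice left out in turn.

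The comparison, its genes and the 33 lists were chosen with earlier results of these data known. Named genes are the 20 of smallest p for the sex difference with a mean of at least 1 CPM, the 12 largest changes over both sexes, the 5 of smallest p in each sex and up to 4 members of a list, without predicted genes. Apoe and sex-linked genes were included by rule. Other genes in the text were picked with their values in view. Not every gene under the rule is described.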

Additional observations from a re-analysis of the deposited data

Results flagged for a closer look

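The APOE4 effects in females and in males differed past the adjusted threshold in 2 genes, as tested by the interaction of genotype and sex (edgeR). For Btg2 the difference was -2.71 on the log2 scale (adjusted p = 0.0259), with APOE4 below APOE3 in 3 of 3 females and above it in 3 of 3 males. For Spred2 it was 0.59 (adjusted p = 0.0259), with the order reversed in 3 of 3 females and 3 of 3 males. Both calls were lost on the 12 libraries alone. In both genes the APOE4 females and APOE3 males stood on the same side, as any crossed order requires. Pituitary hormone reads were nearly absent in these groups and few in APOE3 female 2. The part of that difference in the result was not tested.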

How the results depend on the processing

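The count for the sex difference, 2 genes, was 2 to 3 with DESeq2 size factors, upper-quartile factors, a filter of 1 CPM in 3 libraries or limma voom. It was 159 with no filter, 37 in DESeq2, 6 without robust estimation, 0 on the 12 libraries alone (1422 at an unadjusted p under 0.05), 4 with 1 surrogate variable, 32 with title letters e or f alone, 4 at an adjusted p under 0.1, and 0 to 11 when 1 mouse was left out. The highest, 11, came without APOE4 female 2, and 4 came without APOE4 female 1. It was 0 without APOE4 female 3, APOE3 female 1 or 2, APOE4 male 1 or 2, or APOE3 male 1.

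The 82 genes called in females became 242 with no filter and 127 in DESeq2, and 48 to 81 with 1 mouse left out (48 without APOE3 female 2). The 69 called in males became 309 with no filter, 138 in DESeq2, 106 with the surrogate variable, and 38 to 77 with 1 mouse left out: 38 without APOE3 male 1 or 3, 42 without APOE4 male 3 or APOE3 male 2 and 44 without APOE4 male 2. The 126 called over both sexes became 381 with no filter, 247 in DESeq2, 227 with the surrogate variable and 202 at an adjusted p under 0.1. The cause of these shifts was not tested.

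Of the named genes' values, 0 changed sign under any setting. Counts at an unadjusted p under 0.05 ran from 7 to 11 for glucocorticoid genes, 5 to 12 for immediate early genes and 6 to 10 for chaperones with 1 mouse left out. No paired analysis was possible because the titles hold animal numbers that the groups do not share. With 3 mice a group, the 95% interval of the sex difference reached a median of 0.319 to either side, which limits the differences these data can show.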
